A study of Mus musculus with 10 samples.

Results

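The R-spondins, their Lgr receptors and the Wnt coreceptors were examined in the cortical hem (CH) of wild-type and Lmx1a-/- mouse embryos at e13.5. The members were chosen by symbol: the secreted R-spondins Rspo1, Rspo2 and Rspo3, the receptors Lgr4, Lgr5 and Lgr6, the coreceptors Lrp5 and Lrp6, and the Kremen proteins Kremen1 and Kremen2. All 10 were found among the 52227 genes of the count table, and all 10 passed the filter of at least 10 counts in at least 3 libraries that left 21664 genes to test. The CH is the strip of neuroepithelium between the choroid plexus and the hippocampal primordium. It was captured by laser from frozen sections, and the pieces from 1 embryo made 1 RNA-seq library. There were 5 wild-type and 5 Lmx1a-/- embryos, none of them treated, on a mixed C57Bl6, FVB and CD1 background. The Lmx1a-/- embryos were homozygous for the drJ (dreher) allele, which is present in every cell of the animal, so the loss of Lmx1a function is not limited to the CH.

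R-spondins are secreted proteins that strengthen Wnt signaling rather than start it. In the absence of R-spondin, the membrane ubiquitin ligases Znrf3 and Rnf43 remove Frizzled receptors and the Lrp coreceptors from the cell surface. An R-spondin bound to an Lgr receptor takes these ligases away, and more receptors stay in place. Lrp5 and Lrp6 form the Wnt receptor together with a Frizzled protein. Kremen1 and Kremen2 bind Dkk1, a secreted inhibitor, and with it draw Lrp6 into the cell. The CH secretes several Wnt proteins and is known as the organizer that hippocampal development depends on.

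The members lie on different chromosomes, except for Rspo3 and Lgr5 on chromosome 10. Positions are those of GRCm38 and span the whole gene, introns and exons, and every member is annotated as protein coding. Rspo1 (ENSMUSG00000028871) lies at chr4:124986430-125009099 on the plus strand, Rspo2 (ENSMUSG00000051920) at chr15:43020794-43170826 on the minus strand, and Rspo3 (ENSMUSG00000019880) at chr10:29452416-29535867 on the minus strand. Lgr4 (ENSMUSG00000050199) lies at chr2:109917647-110014257 on the plus strand, Lgr5 (ENSMUSG00000020140) at chr10:115450311-115587780 on the minus strand, and Lgr6 (ENSMUSG00000042793) at chr1:134983301-135105276 on the minus strand. Lrp5 (ENSMUSG00000024913) lies at chr19:3584828-3686564 and Lrp6 (ENSMUSG00000030201) at chr6:134446476-134566965, both on the minus strand. Kremen1 (ENSMUSG00000020393) lies at chr11:5191552-5261558 and Kremen2 (ENSMUSG00000040680) at chr17:23741197-23745833, both on the minus strand. Exons of Rspo3 share 404 bases with Gm48159, and exons of Kremen2 share 200 bases with 9530082P21Rik, each on the opposite strand. The strand setting of the counting is not given in the sources used here, so the counts of Rspo3 and Kremen2 are uncertain to that extent.

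Lmx1a is a homeodomain transcription factor, and homeodomains commonly bind DNA with the core TAAT. RefSeq promoter sequence of GRCm38.p6 was at hand for 4 members, Rspo1, Lgr4, Lgr6 and Kremen2, and the 250 bases before the annotated start were read. The windows of Rspo1, the R-spondin with the highest level per length, and of Lgr4, the Lgr receptor with the highest level per length, are shown 5′ to 3′ on the strand of the gene. They lie at chr4:124986180-124986429 (plus strand) and chr2:109917397-109917646 (plus strand), and capitals mark TAAT on either strand.
Rspo1: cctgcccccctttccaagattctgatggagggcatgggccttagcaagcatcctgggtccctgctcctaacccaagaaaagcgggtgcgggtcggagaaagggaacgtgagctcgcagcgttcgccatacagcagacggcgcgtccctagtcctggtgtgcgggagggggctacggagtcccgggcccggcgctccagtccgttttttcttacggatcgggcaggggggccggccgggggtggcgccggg
Lgr4: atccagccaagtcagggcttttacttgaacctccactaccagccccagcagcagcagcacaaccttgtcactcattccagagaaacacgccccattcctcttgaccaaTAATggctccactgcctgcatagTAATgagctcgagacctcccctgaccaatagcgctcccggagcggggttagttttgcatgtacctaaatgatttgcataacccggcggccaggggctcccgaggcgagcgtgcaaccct
TAAT was found in 1 of the 4 windows, that of Lgr4, which held it at 2 places, and in 54.9% of 32851 promoter windows of the same length. The longer palindrome TAATTA, which contains TAAT, was in 0 of the 4 windows and in 4.84% of all windows. CTTTGA, the core bound by the Tcf and Lef factors that act at the end of the Wnt pathway, was in 0 of the 4 and in 13.8% of all. These matches only describe the letters in these windows.

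The libraries held between 19145952 and 36462780 counts each. Lmx1a itself, whose transcript is still made from the drJ allele, had 71.2 ± 18.2 normalized CPM (read counts scaled to the size of the library) in wild-type embryos and 114 ± 21.0 in Lmx1a-/- embryos (SD, n = 5 each), a log2 difference of 0.68 ± 0.17 (SE) with an edgeR FDR of 0.0658 (0.126 without wild-type embryo 4 and 0.157 without Lmx1a-/- embryo 4), so its level does not check the genotype. CH markers were present in every library, with a summed level of 1289 to 2254 CPM in wild-type and 1505 to 1801 in Lmx1a-/- embryos, and 6 of 12 were lower and 1 higher in Lmx1a-/- at an FDR under 0.1. The higher one was Lmx1a itself, and those lower included the Wnt genes Wnt2b, Wnt5a and Wnt9a. Wnt8b was a large part of the sum, at 599 to 1097 CPM in wild-type and 844 to 1007 in Lmx1a-/- embryos. Choroid plexus markers summed to between 409 and 1642 CPM in wild-type and between 330 and 576 in Lmx1a-/- embryos (4 of 12 tested lower). Most of this sum was Sulf1, at 318 to 1202 CPM in wild-type and 199 to 385 in Lmx1a-/- embryos. Ttr was at 5.74 to 164 and 1.14 to 15.1 CPM. Cortical neuroepithelium markers summed to 522 to 906 and 958 to 1207 CPM and did not overlap (3 of 9 higher). Cajal-Retzius cell markers summed to 317 to 515 and 208 to 306 CPM and also did not overlap (3 of 7 tested lower, 1 higher). Those of meninges and mesenchyme summed to 311 to 927 and 254 to 513 CPM (2 of 12 lower). Endothelial markers summed to 96.8 to 205 and 52.9 to 101 CPM (1 of 8 lower). No marker was called for neurons (752 to 1248 and 860 to 1331 CPM), red blood cells (632 to 1473 and 267 to 573) or microglia (11.7 to 27.8 and 14.0 to 25.6). The sums of red blood cell markers nevertheless did not overlap. Y-linked transcripts were above 1 CPM in wild-type embryo 1 and in all 5 Lmx1a-/- embryos but not in the other 4 wild-type embryos, so sex and genotype are largely confounded. Fewer cells of a type and less RNA per cell cannot be told apart in these libraries.

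None of the 10 members passed an FDR under 0.1 between the genotypes, and for none did the 5 wild-type and 5 Lmx1a-/- libraries fall into separate ranges. Over all genes tested, 4.02% passed the FDR threshold (870 of 21664), with 2.29% lower and 1.72% higher in Lmx1a-/-, and 4.44% had separate ranges. Lgr6 was the 1 member with an unadjusted p under 0.05, which 16.4% of all genes tested had (edgeR quasi-likelihood test, FDR = 0.159). The likelihood ratio test of edgeR and the Wald test of DESeq2 each called 1 member, Lgr6, lower in Lmx1a-/-. These tests called 6.28% and 8.15% of all genes tested, in either direction. The log2 fold change was negative for 8 members and positive for 2, Rspo3 and Lrp6, with a median of -0.32 against -0.0049 over all genes tested. Without wild-type embryo 4 it was negative for 7 and positive for 3, with a median of -0.15. With the Xist level as a covariate 6 were negative and 4 positive (median -0.14), and the same counts were found with the choroid plexus markers as a covariate (-0.17).

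**Figure D1:**
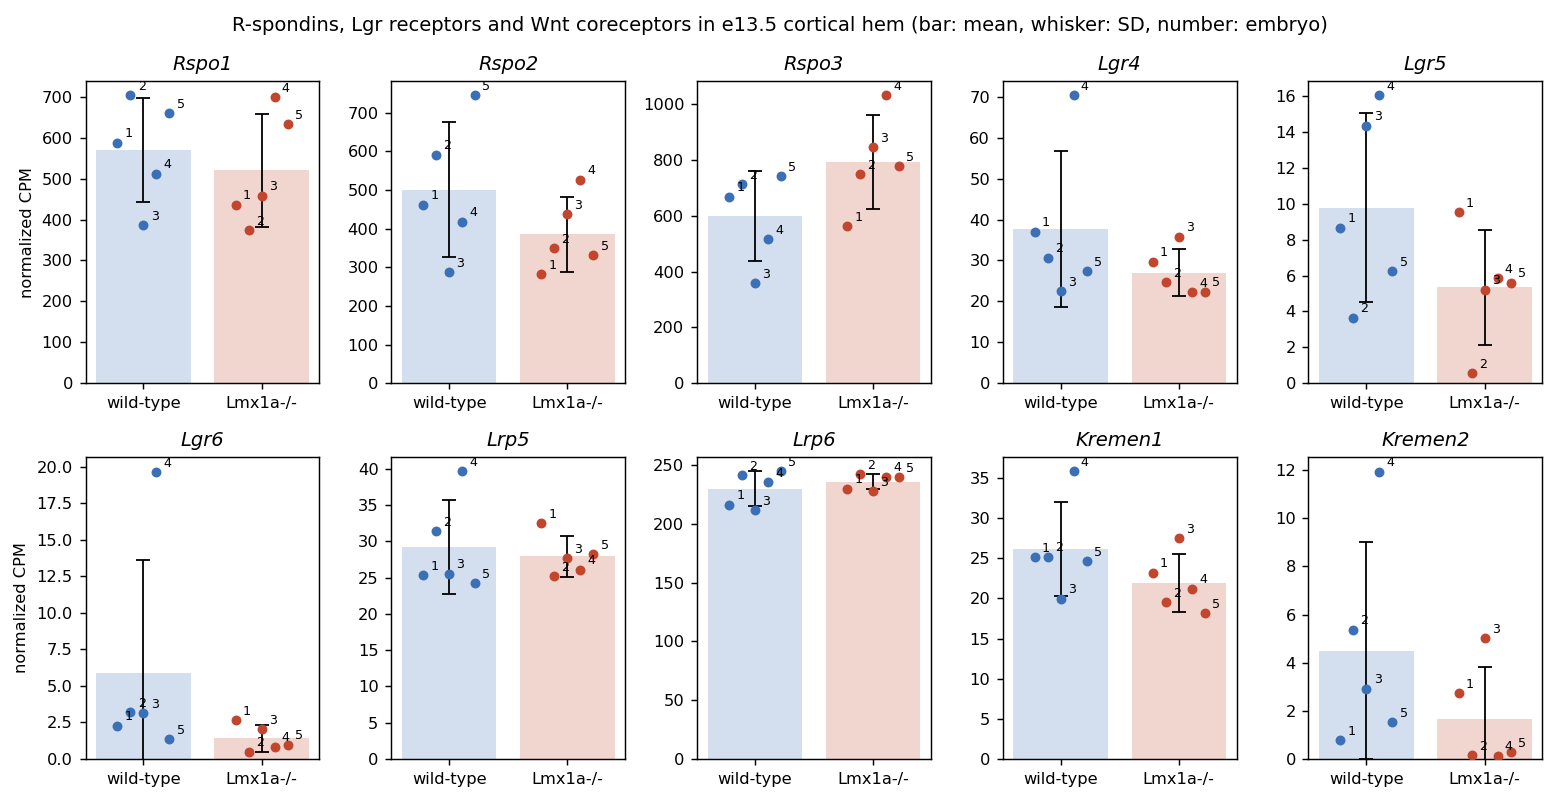
Normalized CPM of each member (vertical axis, linear, a scale of its own for each gene) in the 5 wild-type and 5 Lmx1a-/- embryos, with the embryo number beside each point, bars for the mean and whiskers for the SD, which are not drawn below 0. The points of the genotypes overlap for all 10 genes, and the point of wild-type embryo 4 is the highest of all 10 for Lgr4, Lgr5, Lgr6, Lrp5, Kremen1 and Kremen2.

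Levels of different genes were compared per kilobase of exon (RPKM, from normalized CPM). In wild-type CH the R-spondins stood far above their receptors. Rspo1 was at 294 ± 65 RPKM, Rspo3 at 194 ± 52.0 and Rspo2 at 98.0 ± 34.2 (SD, n = 5). Lrp6 followed at 16.8 ± 1.10 RPKM and Lgr4 at 6.39 ± 3.24. The ranges of neighbours in this order overlapped among the R-spondins but were separate between Rspo2 (56.2 to 146) and Lrp6 (15.5 to 17.9) and between Lrp6 and Lgr4 (3.83 to 11.95). Below Lgr4 came Kremen1 (3.39 RPKM), Lrp5 (3.00), Kremen2 (2.12), Lgr5 (0.954) and Lgr6 (0.862), each overlapping with the next. In Lmx1a-/- CH the order was the same except that Lrp5 (2.87 RPKM) stood above Kremen1 (2.84). By CPM, Rspo3 ranked 72, Rspo1 128 and Rspo2 181 among the 21664 genes tested, counted from the highest mean.

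Rspo1, the R-spondin with the highest level per length, had 588, 703, 386, 512 and 660 CPM in wild-type embryos 1 to 5. Lmx1a-/- embryos 1 to 5 had 436, 374, 458, 699 and 633 CPM. The ranges were nearly the same, with wild-type embryo 3 and Lmx1a-/- embryo 2 at the low end. The means were 570 ± 126 and 520 ± 139 CPM (SD, n = 5 each), and the log2 fold change was -0.13 (SE 0.18, 95% interval -0.53 to 0.26, edgeR FDR = 0.779). With 1 embryo left out at a time it lay between -0.26 and -0.038.

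Rspo2, which like the other R-spondins binds all of the Lgr receptors studied here, had 462, 592, 287, 418 and 745 CPM in wild-type embryos 1 to 5. Its Lmx1a-/- levels (embryos 1 to 5) were 282, 350, 437, 527 and 332 CPM. Only wild-type embryos 2 and 5 lay above every Lmx1a-/- embryo. The means were 501 ± 175 and 386 ± 97.0 CPM, with a log2 fold change of -0.38 (SE 0.22, 95% interval -0.86 to 0.10, edgeR FDR = 0.436). Without wild-type embryo 5, the highest of its genotype, the value was -0.19 (edgeR FDR = 0.705), and without wild-type embryo 3, the lowest, it was -0.53 (edgeR FDR = 0.178).

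Rspo3 had 668, 714, 358, 517 and 741 CPM in wild-type embryos 1 to 5. In Lmx1a-/- embryos 1 to 5 it had 562, 748, 845, 1031 and 776 CPM. Lmx1a-/- embryos 2 to 5 lay above every wild-type embryo, and Lmx1a-/- embryo 1 lay among them. The means were 600 ± 161 and 793 ± 170 CPM, with a log2 fold change of 0.40 (SE 0.19, 95% interval -0.0047 to 0.81, edgeR FDR = 0.312). Without wild-type embryo 3 the value was 0.26 (edgeR FDR = 0.432), and with 1 embryo left out at a time it lay between 0.26 and 0.50.

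Wild-type embryo 3 had the lowest level in its genotype for Rspo1, Rspo2, Rspo3, Lgr4, Lrp6 and Kremen1, 6 of the 10 members, while 19.2% of all genes tested were lowest there. The same embryo had the lowest sum of CH markers (1289 CPM), the lowest wild-type sum of choroid plexus markers (409 CPM) and the highest sum of meningeal and mesenchymal markers (927 CPM). Of its choroid plexus sum, 318 CPM was Sulf1. The part of these tissues in the members' levels was not tested beyond a fit with the choroid plexus markers as a covariate. In that fit the log2 fold change was 0.43 for Rspo1, 0.26 for Rspo2 and 0.99 for Rspo3, and none of the 3 passed the threshold (edgeR FDR = 0.473, 0.815 and 0.117).

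Since wild-type embryo 3 was low for all 3 R-spondins, their ratios within each library were calculated. This was done after the levels had been seen, so the ratios are a description without a test. The log2 ratio of Rspo3 to Rspo2 was 0.53, 0.27, 0.32, 0.31 and -0.0069 in wild-type embryos 1 to 5 and 0.99, 1.10, 0.95, 0.97 and 1.23 in Lmx1a-/- embryos 1 to 5. Every Lmx1a-/- embryo lay above every wild-type embryo, with a gap of 0.42 between the ranges, and the means were 0.28 ± 0.19 and 1.05 ± 0.12 (SD, n = 5 each). Among the 21663 other genes tested, 1.74% had a log2 ratio to Rspo2 whose ranges were separate between genotypes, and among the 1796 genes with a mean of at least 100 CPM 1.28% did.

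The log2 ratio of Rspo3 to Rspo1 was 0.18, 0.022, -0.11, 0.013 and 0.17 in wild-type embryos 1 to 5. It was 0.36, 1.00, 0.88, 0.56 and 0.29 in Lmx1a-/- embryos 1 to 5. These ranges were also separate, with a smaller gap of 0.11 and means of 0.055 ± 0.12 and 0.62 ± 0.31, and 1.7% of the other genes had separate ranges in their ratio to Rspo1 (1.28% of those with a mean of at least 100 CPM). Read the other way, 4.05% of all genes and 4.12% of those with a mean of at least 100 CPM had separate ranges in their ratio to Rspo3. The log2 ratio of Rspo1 to Rspo2 overlapped between genotypes (0.23 ± 0.23 and 0.43 ± 0.37). In all, 8 ratios between related members were calculated and these 2 were the ones with separate ranges, both of them with Rspo3, whose counts carry the overlap with Gm48159.

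**Figure D2:**
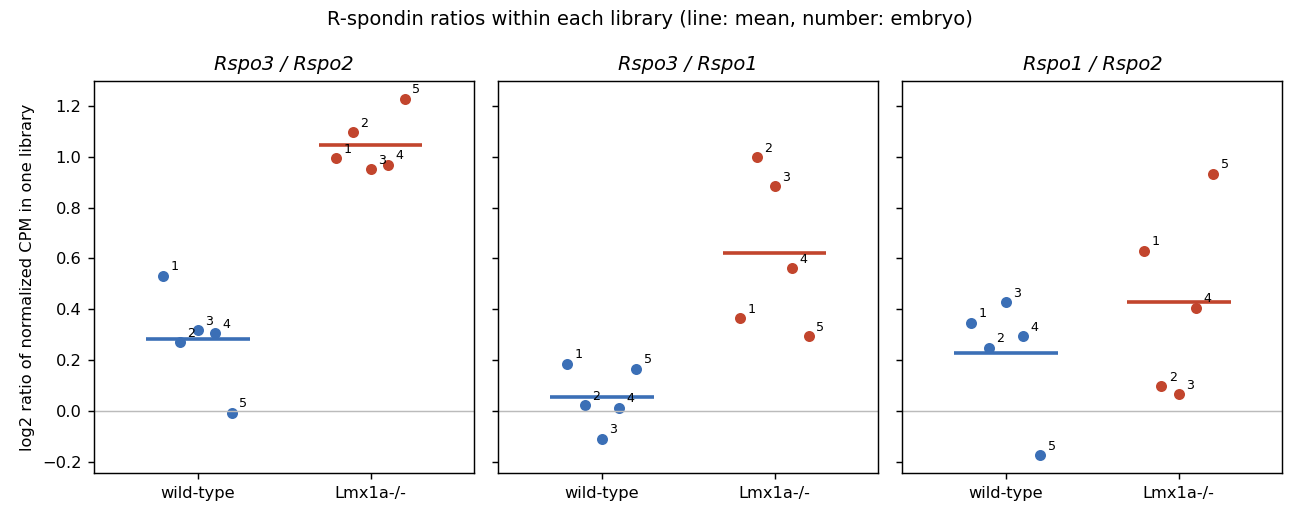
Log2 ratio of normalized CPM between R-spondins within 1 library (vertical axis) in the 5 wild-type and 5 Lmx1a-/- embryos, with the embryo number beside each point and a line for the mean. For Rspo3 to Rspo2 the wild-type points end at 0.53 and the Lmx1a-/- points begin at 0.95, for Rspo3 to Rspo1 they end at 0.18 and begin at 0.29, and for Rspo1 to Rspo2 they overlap.

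Expressed per length, Rspo3 made up 33.0% ± 1.56 of the 3 R-spondin transcripts in wild-type CH (31.2% to 35.5%) and 42.9% ± 4.01 in Lmx1a-/- CH (39.1% to 48.1%). Rspo2 made up 16.5% ± 2.11 and 12.6% ± 1.66, with separate ranges (14.8% to 20.1% and 10.1% to 14.4%). Rspo1 made up 50.6% ± 2.50 and 44.6% ± 5.46, with overlapping ranges. The 3 shares of a library depend on each other and restate the ratios above, and the CPM of each gene overlapped between genotypes. The summed CPM of the 3 genes was 1670 ± 448 in wild-type and 1698 ± 368 in Lmx1a-/- embryos, so the total differed by less than its spread. Summed markers of cortical neuroepithelium, Cajal-Retzius cells and red blood cells had separate ranges between the same groups. Choroid plexus sums overlapped, with 4 of 12 tested markers lower in Lmx1a-/- embryos, and Y-linked transcripts also differed. The part of these differences in the ratios was not tested.

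Lgr4, the most abundant of the 3 receptors, had 36.99, 30.7, 22.5, 70.3 and 27.4 CPM in wild-type embryos 1 to 5. Lmx1a-/- embryos 1 to 5 had 29.7, 24.7, 35.8, 22.2 and 22.4 CPM. Wild-type embryo 4 stood above the rest, and the other embryos of both genotypes shared a range. Between genotypes the log2 fold change was -0.47 (SE 0.26, 95% interval -1.04 to 0.093, edgeR FDR = 0.401) and -0.13 without wild-type embryo 4 (between -0.61 and -0.13 with 1 embryo left out at a time).

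Lgr5, known as a Wnt target and a stem cell marker in the gut, had 8.66, 3.65, 14.3, 16.0 and 6.24 CPM in wild-type embryos 1 to 5. Its Lmx1a-/- levels (embryos 1 to 5) were 9.54, 0.544, 5.21, 5.84 and 5.6 CPM, and the lowest of these rested on 10 reads. Wild-type embryos 3 and 4 lay above all Lmx1a-/- embryos, and the others overlapped. The means were 9.79 ± 5.28 and 5.35 ± 3.20 CPM, with a log2 fold change of -0.86 (SE 0.52, 95% interval -1.99 to 0.27, edgeR FDR = 0.450). With 1 embryo left out at a time it lay between -1.17 and -0.58.

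Lgr6, known for marking stem cells of the skin, had 2.28, 3.20, 3.12, 19.6 and 1.33 CPM in wild-type embryos 1 to 5. In Lmx1a-/- embryos 1 to 5 it had 2.66, 0.489, 2.04, 0.831 and 0.974 CPM, from 9 to 80 reads. Wild-type embryo 4 stood far above all others, and the remaining ranges overlapped. The log2 fold change was -2.05 (SE 0.70, 95% interval -3.56 to -0.55, edgeR FDR = 0.159). Without wild-type embryo 4 it was -0.82 (edgeR FDR = 0.465), with the Xist level as a covariate -0.51 (edgeR FDR = 0.923), and in wild-type embryo 1 against the 5 Lmx1a-/- embryos -0.70 (edgeR FDR = 0.825).

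The genes most like Lgr6 over the 10 libraries, among 11549 with a mean of at least 5 CPM, were H19, Itgb4 and Lmo7. The root mean square difference of their centred log2 CPM from that of Lgr6 was 0.30, 0.34 and 0.35. All 3 were highest in wild-type embryo 4, at 927, 36.8 and 74.7 CPM. H19 is an imprinted non-coding RNA, Itgb4 encodes the integrin of hemidesmosomes and Lmo7 a protein of cell junctions. Of the 3, only Lmo7 passed between genotypes (log2 fold change -2.28, SE 0.64, edgeR FDR = 0.0913). In the other wild-type embryos it had 6.31 to 14.2 CPM, and without wild-type embryo 4 its log2 fold change was -1.02 (edgeR FDR = 0.161). A list of 14 markers of surface ectoderm, the embryonic skin, was therefore written after these values had been seen. Its summed level was 1803 CPM in wild-type embryo 4, between 83.8 and 260 in the other wild-type embryos and between 51.1 and 213 in Lmx1a-/- embryos. The list was highest in wild-type embryo 4 for 12 of its 14 genes, and 6 of the 14 were at 0 in at least 1 library. The exceptions were Krt8 and Grhl3. Krt8 reached 3.77 CPM in wild-type embryo 1, against 3.74 in wild-type embryo 4. Grhl3 went the other way, with its peak of 64.2 CPM in Lmx1a-/- embryo 4. It ranged from 4.97 to 37.6 CPM among wild-type embryos and from 29.1 to 64.2 among Lmx1a-/- embryos.

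Keratin 5 (Krt5), a defining keratin of basal epidermis, had 16.1, 43.4, 40.1, 378 and 11.2 CPM in wild-type embryos 1 to 5. Lmx1a-/- embryos 1 to 5 had 14.1, 0, 30.1, 0 and 1.32 CPM. Wild-type embryo 4 was again far above the others, and after it came wild-type embryos 2 and 3 and Lmx1a-/- embryo 3. The epidermal regulator Trp63 was at 152 CPM in wild-type embryo 4 and at or below 24.1 CPM in the other 9 libraries. Both genes were chosen after their values were seen. The part of such RNA in the levels of the Lgr receptors and Kremen proteins was not tested.

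Lrp6, the main Wnt coreceptor in the mouse embryo, had the narrowest interval of the 10 members. It had 216, 241, 212, 235 and 245 CPM in wild-type embryos 1 to 5 and 230, 243, 228, 240 and 240 in Lmx1a-/- embryos 1 to 5. The Lmx1a-/- values lay wholly within the wild-type range. Between genotypes the log2 fold change was 0.038 (SE 0.064, 95% interval -0.10 to 0.18, edgeR FDR = 0.827), which is a change of between -6.70% and 12.9%.

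Lrp5, its close relative, had 25.3, 31.4, 25.6, 39.7 and 24.2 CPM in wild-type embryos 1 to 5. Its Lmx1a-/- levels (embryos 1 to 5) were 32.6, 25.2, 27.7, 26.1 and 28.3 CPM. The ranges overlapped fully, and wild-type embryo 4 was the highest. The log2 fold change was -0.063 (SE 0.14, 95% interval -0.36 to 0.24, edgeR FDR = 0.875), and without wild-type embryo 4 it was 0.066.

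Kremen1 had 25.1, 25.2, 19.97, 35.9 and 24.6 CPM in wild-type embryos 1 to 5. In Lmx1a-/- embryos 1 to 5 it had 23.2, 19.5, 27.5, 21.2 and 18.1 CPM. The genotypes overlapped, with wild-type embryo 4 above the rest. Between genotypes the log2 fold change was -0.25 (SE 0.16, 95% interval -0.59 to 0.087, edgeR FDR = 0.465) and -0.12 without that embryo (between -0.35 and -0.12 with 1 embryo left out at a time).

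Kremen2 had 0.784, 5.37, 2.91, 11.9 and 1.51 CPM in wild-type embryos 1 to 5. Lmx1a-/- embryos 1 to 5 had 2.73, 0.163, 5.01, 0.139 and 0.278 CPM, and 3 of these values rested on 3, 5 and 8 reads. The 4 highest libraries, wild-type embryos 4 and 2, Lmx1a-/- embryo 3 and wild-type embryo 3, were also the 4 highest for Krt5. Below them the order differed, since wild-type embryo 1 (Krt5 16.1 CPM) was below Lmx1a-/- embryo 1 (Krt5 14.1 CPM) for Kremen2. Krt5 was chosen after its values were seen, and a link between the 2 genes was not tested. The log2 fold change was -1.41 (SE 0.92, 95% interval -3.41 to 0.58, edgeR FDR = 0.489), without wild-type embryo 4 it was -0.65, and without Lmx1a-/- embryo 3 it was -2.41. With the Xist level as a covariate its sign turned (1.40), as it did in wild-type embryo 1 against the 5 Lmx1a-/- embryos (1.09).

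**Figure D3:**
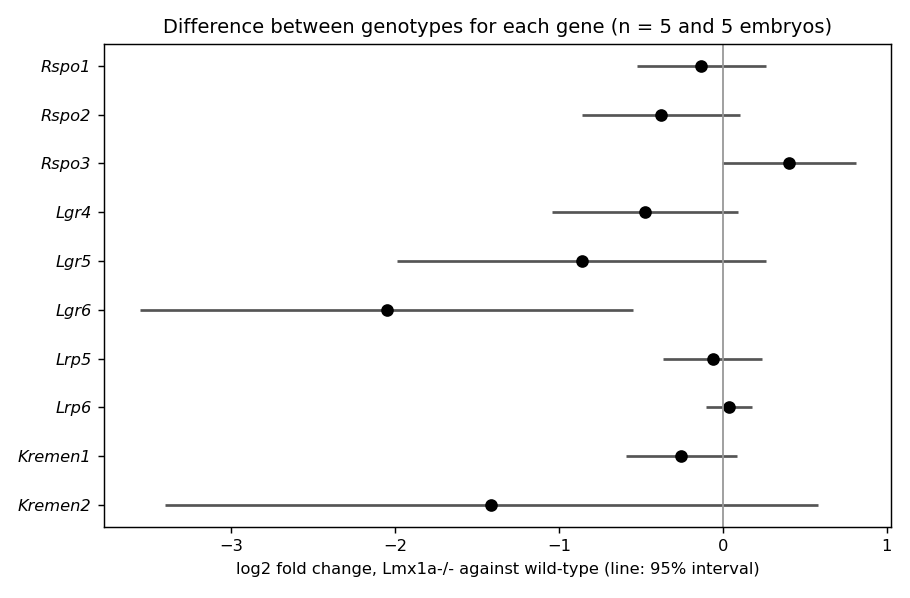
Log2 fold change of each member, Lmx1a-/- against wild-type (horizontal axis; points, with lines for the 95% interval; n = 5 embryos each). The interval of Lrp6 is the narrowest (-0.10 to 0.18), those of Lgr6 and Kremen2 are the widest, and the interval of Lgr6 is the one that does not reach 0.

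The other genes of the Wnt pathway were taken from lists ordered by role. Of 91 listed genes 80 were tested, and 4 were lower and 3 higher in Lmx1a-/- CH at an FDR under 0.1 (8.75%, against 4.02% of all genes). The lists were chosen with earlier results of these data known, so these shares are a description without a test. Closest to the R-spondins stand the ubiquitin ligases and coreceptor regulators, where 0 of 11 tested genes passed. An unadjusted p under 0.05 was found for 6 of the 11, beside 16.4% of all genes tested. The nearest were Mesd, the chaperone that folds the Lrp coreceptors, at 104 ± 8.44 and 140 ± 29.3 CPM (0.43 on the log2 scale, SE 0.13, edgeR FDR = 0.105), and Znrf3, the ligase that R-spondins remove, at 126 ± 15.0 and 158 ± 17.0 CPM (0.33, SE 0.098, edgeR FDR = 0.108).

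Among Wnt ligands and their secretion factors 3 of 17 tested genes were lower and 0 higher. Wnt2b fell by 1.02 on the log2 scale, from 151 ± 31.2 to 74.4 ± 21.0 CPM (edgeR FDR = 0.0120), and Wnt9a fell by 0.88, from 58.2 ± 16.5 to 31.6 ± 7.13 CPM (edgeR FDR = 0.0430). Wnt5a, which often acts outside the β-catenin pathway, fell by 0.41, from 380 ± 67.5 to 286 ± 20.1 CPM (edgeR FDR = 0.0770). Wnt5a no longer passed with any 1 of 8 of the 10 embryos left out (edgeR FDR = 0.109 to 0.171), and Wnt9a without wild-type embryo 1 (edgeR FDR = 0.102). The median log2 fold change of the 17 genes was -0.87, and -0.44 without wild-type embryo 4. It differed with level: the 8 genes with a mean of at least 10 CPM had a median of -0.43 and the 9 below that a median of -0.90. The most abundant ligand, Wnt8b, a CH and hippocampal Wnt named after its values were seen, had 851 and 920 CPM (0.11, edgeR FDR = 0.738). With the Xist level as a covariate the median of the list was 0.051.

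Of the 10 Frizzled receptors, which bind Wnt proteins together with Lrp5 or Lrp6, 1 was higher. This was Fzd9, at 27.1 ± 5.00 and 43.3 ± 7.15 CPM (0.67 on the log2 scale, SE 0.15, edgeR FDR = 0.0314). Of 9 alternative receptors and coreceptors 1 was also higher, the heparan sulfate proteoglycan Gpc4, at 74.0 ± 19.2 and 119 ± 7.98 CPM (0.68, SE 0.14, edgeR FDR = 0.0224). The wild-type and Lmx1a-/- libraries did not overlap for either gene, as for 4.44% of all genes tested. The ranges were 19.5 to 32.6 and 35.7 to 53.9 CPM for Fzd9. For Gpc4 they nearly touched, at 59.1 to 107.2 and 107.9 to 129.4 CPM. With the choroid plexus markers as a covariate Gpc4 was at 0.36 (edgeR FDR = 0.469) and Fzd9 at 0.80 (edgeR FDR = 0.2125).

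Of 7 secreted antagonists 1 was higher, Frzb, which binds Wnt proteins outside the cell. It had 10.3 ± 3.74 CPM in wild-type and 40.0 ± 4.83 in Lmx1a-/- embryos (log2 fold change 1.95, SE 0.22, edgeR FDR = 0.000665). Of 7 tested target genes 1 was lower, Nkd1, a feedback inhibitor of the pathway, which fell by 0.98 on the log2 scale from 117 ± 31.3 to 59.5 ± 10.9 CPM (edgeR FDR = 0.00840). None of the 19 transducers passed at an FDR under 0.1, while 5 had an unadjusted p under 0.05, beside 16.4% of all genes tested. The nearest were Gsk3b (log2 fold change 0.24, edgeR FDR = 0.144) and Csnk1g2 (-0.31, edgeR FDR = 0.188).

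These pathway calls were made beside the marker differences given above, and Wnt2b, Wnt5a and Wnt9a count in both. With the choroid plexus markers as a covariate 0 pathway genes were lower and 1 higher, Frzb (1.72, SE 0.33, edgeR FDR = 0.0623). In that fit Wnt9a was at -0.21 (edgeR FDR = 0.801) and Wnt2b at -0.59 (edgeR FDR = 0.393). Nkd1 was at -0.54 (edgeR FDR = 0.339) and Wnt5a at -0.37 (edgeR FDR = 0.471), and Gpc4 and Fzd9 are given above. With the Xist level as a covariate 0 pathway genes were called. In the Xist fit Frzb was at 1.95 (SE 0.45), Gpc4 at 0.76 (SE 0.27), Wnt2b at -1.26 (SE 0.30) and Wnt9a at -1.02 (SE 0.34). Nkd1 was at -0.79 (SE 0.29), Fzd9 at 0.41 (SE 0.26) and Wnt5a at -0.35 (SE 0.20). Each kept its direction with a larger SE than in the main fit. Sex and genotype are largely confounded, so this fit cannot separate them. Without wild-type embryo 1 there were 2 lower and 3 higher, without wild-type embryo 3 there were 9 and 4, and without Lmx1a-/- embryo 3 there were 8 and 6.

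**Figure D4:**
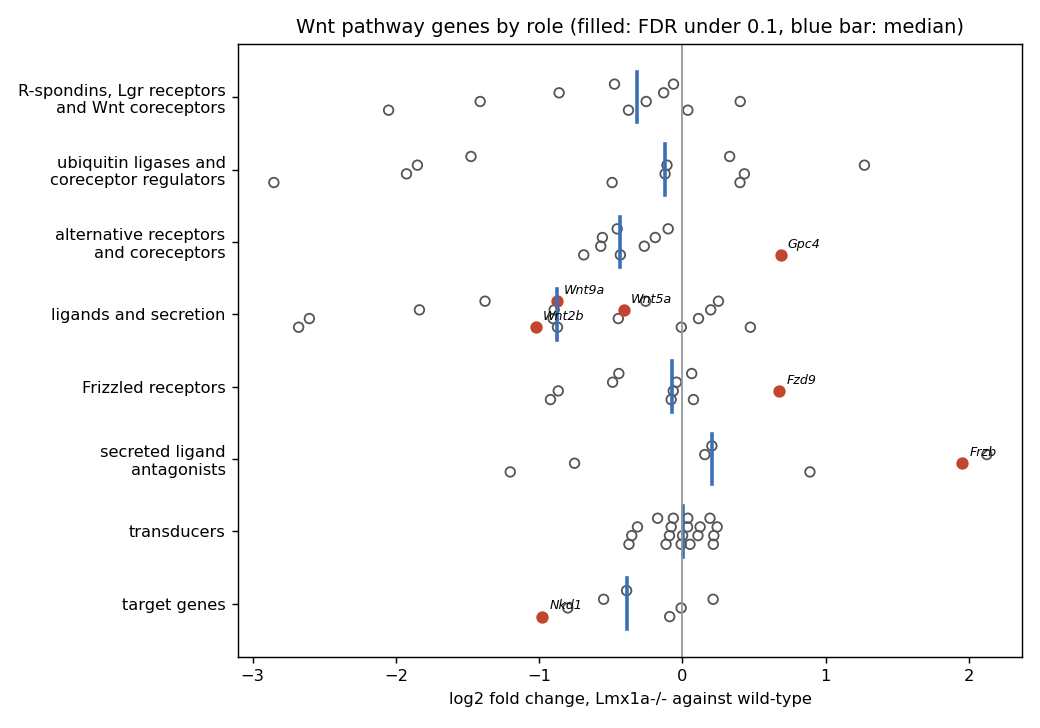
Log2 fold change, Lmx1a-/- against wild-type (horizontal axis), of the members and of the other tested Wnt pathway genes by role (rows). Each circle is 1 gene, filled and named where the FDR is under 0.1, and the blue bar is the median of the row. Filled are 0 of 10 members and 3 of 17 ligand and secretion genes, beside 4.02% of all genes tested. The median of the ligand and secretion genes is -0.87 (-0.44 without wild-type embryo 4).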

How the data were processed

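RNA of laser-captured CH from 5 wild-type and 5 Lmx1a-/- embryos (1 library each) was sequenced after a SMARTER library preparation. After trimming (Trimmomatic), the authors used STAR 2.7.1a for alignment to GRCm38 and HTSeq 0.11.2 for counting per gene, and the deposited values are raw counts. The table had 52508 rows, of which 281 exact repeats were dropped, and positions and exon lengths come from GENCODE M21. Library totals were 19145952 to 36462780 counts.

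After a filter on low counts (10 or more in 3 or more libraries), genes were scaled by TMM and tested with edgeR 4.0.16 (quasi-likelihood, R 4.3.3, limma 3.58.1), with Benjamini-Hochberg adjustment over 21664 genes and an FDR under 0.1. The scripts were tested on simulated data. Log2 ratios within a library used a prior count of 2. The alternatives are other tests (edgeR likelihood ratio, DESeq2 1.42.0), dispersions, scalings and filters, covariates, the embryo number as a block, and each embryo left out.

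The members and lists were chosen with earlier results of these data known. The genes named are the members, in each Wnt list those past the threshold (at most the 5 with the smallest p) or else the 2 with the smallest p, Lmx1a, and the 3 genes most like the member with the smallest p. Marker lists covered CH, choroid plexus, cortical neuroepithelium, Cajal-Retzius cells, neurons, meninges and mesenchyme, endothelium, red blood cells and microglia, and the surface ectoderm list, the ratios, the medians of lists under each alternative and the split of the ligands by level were added after seeing the data.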

Additional observations from a re-analysis of the deposited data

Results flagged for a closer look

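Lgr6 in wild-type embryo 4 had 19.6 normalized CPM, while the other 4 wild-type embryos had 1.33 to 3.20. Its gap to the next embryo exceeded the 95% critical value of Dixon's test for 5 samples. Each member was examined in both genotypes, and chance alone marks about 1 in 20 such groups.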

How the results depend on the processing

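Of the 10 members, 0 passed in every alternative except edgeR's likelihood ratio test and the DESeq2 Wald test, where 1 was lower, Lgr6 (-2.07, FDR = 0.0586 and 0.0947). Signs turned, without a call, for Rspo1 (0.43) and Rspo2 (0.26) with the choroid plexus covariate, for Lrp5 with the Xist covariate (0.18), within embryos with Y-linked transcripts (0.14) and with wild-type embryo 4 left out (-0.13 to 0.066 over the embryos left out), and for Kremen2 with the Xist covariate (1.40) and within embryos with Y-linked transcripts (1.09). Lgr6 was at -0.51 with the Xist covariate and -0.70 within embryos with Y-linked transcripts, with no call. The comparison within those embryos has 1 wild-type library, which is assumed to vary like the others. The other Wnt pathway genes, 4 lower and 3 higher, came to 8 and 6 by the likelihood ratio test and 13 and 8 by DESeq2. There were 6 higher with the newer dispersion method and 6 with library size only, 7 lower without a filter on low counts, and 5 higher with a CPM of at least 1 in at least 5 libraries. There were 0 and 0 with the Xist covariate, 0 and 1 with the choroid plexus covariate, and 0 lower within embryos with Y-linked transcripts. With each embryo left out in turn, 2 to 9 were lower and 3 to 6 higher. The cause was not tested.

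Over all genes, 870 calls became 1360 by the likelihood ratio test, 1766 by DESeq2, 27 with the Xist covariate, 145 with the choroid plexus covariate, 130 within embryos with Y-linked transcripts, 448 at an FDR under 0.05, and 451 to 1059 with 1 embryo left out. The deviations of same-numbered embryos correlated at -0.099 to 0.013, which gave no sign that embryo numbers pair the samples. Pairing by litter under other numbers could not be tested this way. With the embryo number as a replicate block 601 genes, 0 members, and 3 lower and 4 higher pathway genes were called. Depth limits Lgr6 and Kremen2 most, since their lowest libraries held 9 and 3 reads. The paper describes the wild-type embryos as littermates of the mutants. The labels name separate embryos, but not litters or days.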
